A study of Mus musculus with 56 samples.

Results

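The cadherin, desmosome, claudin and connexin genes of mouse back skin were described from 76 of the 24062 gene rows of one expression table. They were taken by symbol: every numbered cadherin (Cdh), desmoglein (Dsg), desmocollin (Dsc), plakophilin (Pkp), claudin (Cldn) and connexin (Gja to Gjd) row, except the endothelial Cdh5 and Cldn5 and the glial Cdh19. The set held 21 cadherins, 6 desmogleins, 3 desmocollins, 4 plakophilins, 23 claudins and 19 connexins. The rule used symbols and no measured values, but it was chosen with earlier results of these data known.

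Cells were sorted from dorsal skin of mice at postnatal day 22 and their RNA was sequenced in bulk. There were 7 populations: a negative, mixed remainder of the sort (Neg), bulge stem cells (BuSC), hair germ stem cells (HGSC), epidermal cells (Epi), cells labelled as upper hair follicle (Foll), dermal papilla cells (DP) and dermal fibroblasts (DF). Each was taken from 4 back skin sections (zones 1 to 4) in 2 biological replicates, which gave 8 libraries a population and 56 in all. The labels give the genotype as CD1 for every library, and the library protocol names a K14-H2BGFP;Crabp1-GFP;Lef1-RFP reporter line. K14 is a promoter of basal keratinocytes, so that reporter marks keratinocytes, and all groups are given the same genotype. The labels do not say whether animals were pooled, whether the zones of a replicate came from 1 animal, or where on the back each zone lies, and the zone is also their batch field, so a zone difference and a batch difference cannot be told apart.

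Libraries held between 3.24 and 87.8 M reads, with a median of 14.7 M (M, mega). Marker sums separated keratinocytes from mesenchyme, and finer identities less fully. Summed keratinocyte markers (Krt14, Krt5 and Krt15) were between 1870 and 12700 RPKM in BuSC, HGSC, Epi and Foll libraries and at most 67.9 RPKM in DP and DF libraries, and summed dermal papilla markers were between 615 and 807 RPKM in DP against 16.6 to 48.1 RPKM in DF. Sums of bulge markers overlapped (355 to 528 RPKM in BuSC, 357 to 470 in HGSC), as did those of hair germ markers (41.9 to 110 RPKM in BuSC, 77.9 to 178 in HGSC) and interfollicular ones (2290 to 3600 RPKM in Epi, 615 to 3510 in Foll). Single markers did separate BuSC from HGSC. Of 4 bulge markers, Cd34 and Sox9 were called higher in BuSC (means of 62.7 and 106 RPKM against 0.368 and 22.4), and 0 lower. Of 3 hair germ markers, Shh and Wnt10b were called lower in BuSC (0.492 and 1.75 RPKM against 43.7 and 23.5), and 0 higher. In 4 libraries (Foll zone 1 replicate 2, Foll zone 3 replicate 2, Foll zone 4 replicate 2 and Epi zone 3 replicate 2) the most similar library belonged to another population. Of these, Epi zone 3 replicate 2 was also the most similar library of every other Epi library. Its r was 0.944 both to Epi zone 2 replicate 2 and to Foll zone 4 replicate 2. Below, these 4 libraries are said to resemble another population in this sense alone. Epi against Foll is therefore also given without these 4 libraries. For stem cells against other keratinocytes, the genes that crossed the minimum difference and the main named genes are given without them.

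Cadherins are calcium-dependent adhesion proteins. The classical ones join neighbouring cells at adherens junctions through catenins, and the desmogleins and desmocollins do so at desmosomes, where plakophilins and desmoplakin tie them to keratin filaments. Claudins form the strands of tight junctions that seal the space between cells, and connexins form the channels of gap junctions that let small molecules pass between cells. In skin, desmosomes carry mechanical load in the epidermis, claudin 1 is needed for the water barrier, and the hair follicle is known for P-cadherin (Cdh3) where the epidermis is known for E-cadherin (Cdh1).

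Several connexin genes lie side by side in the genome, and the promoters of 4 of them are shown. Some of these neighbours were highest in different populations and others in the same one. Gja4 and Gjb5 lie close together on chromosome 4, and Gja4 was highest in Neg while Gjb5 was highest in Epi. Gjb2 and Gjb6 are a pair on chromosome 14, both highest in HGSC and above 2 RPKM on average in each keratinocyte population. Whether their patterns over the populations differ was not tested. Sequences are the 250 bases before the annotated start, from RefSeq (GRCm38.p6), 5′ to 3′. Capitals mark GGGCGG (the GC box), CAGGTG (the E-box that Snail and Zeb repressors bind) and TATAAA, each searched on both strands, where CCGCCC and TTTATA are the first and the last of them read on the other strand. No match overlapped another in these windows.
Gja4, chr4:127314040-127314289, minus strand: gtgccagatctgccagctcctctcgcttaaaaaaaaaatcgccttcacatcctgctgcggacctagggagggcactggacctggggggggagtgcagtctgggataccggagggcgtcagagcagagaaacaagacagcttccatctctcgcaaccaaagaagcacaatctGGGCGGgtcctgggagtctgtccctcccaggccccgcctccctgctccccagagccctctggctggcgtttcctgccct
Gjb5, chr4:127358165-127358414, minus strand: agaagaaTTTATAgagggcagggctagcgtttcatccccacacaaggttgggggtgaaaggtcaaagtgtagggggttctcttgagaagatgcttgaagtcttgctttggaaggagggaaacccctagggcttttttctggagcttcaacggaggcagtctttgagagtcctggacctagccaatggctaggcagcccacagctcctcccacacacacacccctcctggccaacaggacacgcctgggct
Gjb2, chr14:57104703-57104952, minus strand: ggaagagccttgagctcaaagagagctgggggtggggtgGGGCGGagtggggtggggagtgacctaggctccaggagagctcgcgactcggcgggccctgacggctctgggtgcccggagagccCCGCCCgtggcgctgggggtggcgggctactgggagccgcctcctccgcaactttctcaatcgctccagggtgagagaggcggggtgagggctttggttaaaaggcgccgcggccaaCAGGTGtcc
Gjb6, chr14:57133612-57133861, minus strand: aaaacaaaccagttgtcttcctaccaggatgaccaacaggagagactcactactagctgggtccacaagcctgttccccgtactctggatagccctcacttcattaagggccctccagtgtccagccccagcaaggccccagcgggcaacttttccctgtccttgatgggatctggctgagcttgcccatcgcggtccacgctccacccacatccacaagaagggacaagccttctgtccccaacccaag
The Gja4 window held 1 GGGCGG, the Gjb5 window 1 TATAAA, and the Gjb2 window 2 GGGCGG and 1 CAGGTG, and none of these letters were found in the Gjb6 window. Over all 32851 promoter windows of this length, 32.7% held GGGCGG, 17.2% held CAGGTG and 12.4% held TATAAA. The windows also differed in CpG dinucleotides, with 9 in Gja4, 3 in Gjb5, 18 in Gjb2 and 5 in Gjb6, against a median of 6 over all windows.

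Levels are given in RPKM, read counts scaled by gene length and library size, which can be compared between genes. A total of 29 genes of the set reached a mean of 10 RPKM in at least 1 population, and 29 others stayed under 1 RPKM in every one. The epidermis held the highest mean for 11 of the first 29, DF and HGSC for 4 each, BuSC and Neg for 3 each, and Foll and DP for 2 each. Genes at 10 RPKM or more numbered 15 to 20 in a BuSC library, 15 to 19 in HGSC, 17 to 20 in Epi, 17 to 19 in Foll, 4 to 5 in DP, 6 to 8 in DF and 13 to 17 in Neg.

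**Figure D1:**
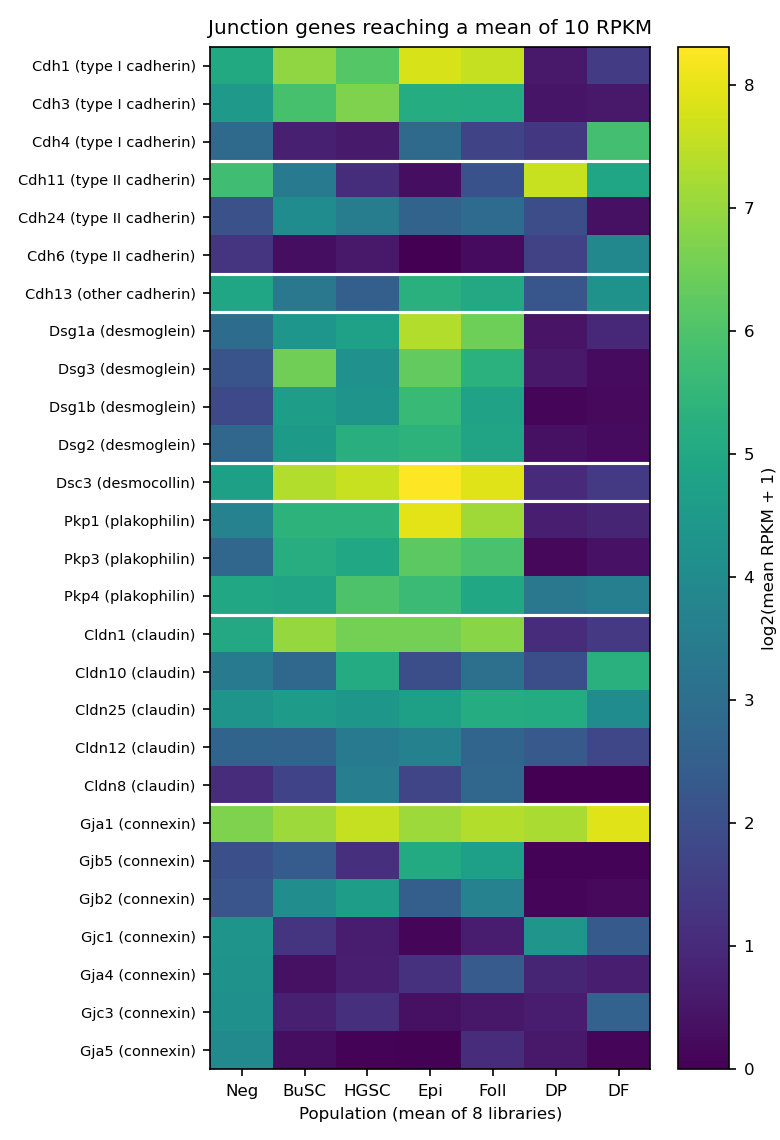
Heatmap of 27 of the 29 junction genes that reached a mean of 10 RPKM in at least 1 population (rows, grouped by gene family) in the 7 populations (columns), coloured by log2(mean RPKM + 1) over 8 libraries. Desmosomal genes, Cdh1, Cdh3, Cldn1, Gjb2 and Gjb5 are brighter in the 4 keratinocyte columns than in DP and DF, Cdh11 is brightest in DP and Cdh4 in DF, and Gja1 is bright in all 7.

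Differences were tested in limma on log2(RPKM + 1), so a difference understates the change of a gene with low values and is a mean over libraries of logs, not the log of a ratio of means. A gene was called higher or lower where its Benjamini-Hochberg adjusted p over all 16731 tested genes was under 0.05 and its difference was at least 1. Of the 76 genes, 53 passed the filter on low values (at least 1 RPKM in at least 2 libraries), and the other 23 had a mean of at most 0.451 RPKM in any population. The p-values measure the spread between libraries, and they treat the zones of a replicate as separate samples. In bulk RNA, fewer cells of a type and less RNA per cell cannot be told apart.

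The 4 keratinocyte populations differed from the 2 mesenchymal ones most in desmosomes and E-cadherin. Of the 53 tested genes, 21 were higher in keratinocytes and 6 were lower, beside 28.3% of all tested genes called (18.5% higher and 9.77% lower). The median difference of the 53 was 0.25, against 0.27 over all tested genes. By family, 4 of 5 tested desmogleins, all 3 desmocollins, 3 of 4 plakophilins, 3 of 13 claudins and 5 of 13 connexins were higher, while cadherins were called both ways, with 3 of 15 higher and 5 lower.

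E-cadherin, Cdh1, the adherens junction protein of epithelia, ranged over libraries from 102 to 135 RPKM in BuSC (median 122), from 32.9 to 95.2 in HGSC (median 70.5), from 178 to 286 in Epi (median 211) and from 135 to 223 in Foll (median 188), against 0.0522 to 0.862 in DP (median 0.543) and 0.678 to 2.97 in DF (median 1.88). The keratinocyte libraries were all far above the mesenchymal ones, and the difference was 6.10 ± 0.12 (SE; adjusted p = 1.46e-30). Dsc3, the desmocollin of basal keratinocytes, had the largest difference of the set, 6.71 ± 0.16 (adjusted p = 4.76e-28), with library medians of 167 RPKM in BuSC, 195 in HGSC, 318 in Epi and 234 in Foll against 0.647 in DP and 1.35 in DF. Pkp1, Cldn1, Pkp3 and Dsg3 followed, with differences between 5.22 and 5.75. Cldn1, the barrier claudin, was the most even of them, with means of 126, 94.0, 94.4 and 112 RPKM in BuSC, HGSC, Epi and Foll, of which no 2 neighbours in order differed.

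Mesenchymal cells carried another set of cadherins. Cdh11, the cadherin of mesenchymal cells, averaged 9.46 RPKM in BuSC, 1.13 in HGSC, 0.237 in Epi and 3.28 in Foll, against 195 in DP and 28.6 in DF, a difference of -4.69 ± 0.17 (adjusted p = 3.58e-23). Gjc1 (connexin 45), Cdh6, Cdh4, Cdh2 (N-cadherin) and Cdh18 were also lower in keratinocytes, with differences between -2.70 and -1.78. Cdh18 reached 1 RPKM in 14 libraries, all of DP or DF. It passed the filter on low values through them alone, so its call follows in part from the filter. For Cdh4, DF was above every keratinocyte population and DP was not: it averaged 0.659 RPKM in BuSC, 0.522 in HGSC, 6.32 in Epi and 2.27 in Foll, against 1.56 in DP and 55.9 in DF. The balance over all genes moved with scaling: 65.5% of all calls were higher in keratinocytes as deposited, 47.3% after quantile scaling and 40.6% after median-of-ratios scaling, with median differences of 0.27, 0.04 and -0.04. The set's split was 21 higher and 6 lower as deposited and 20 higher and 8 lower under either scaling.

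Genes that work with these proteins were counted from a list of 36 junction partners, of which 34 were tested. In keratinocytes 22 of them were higher and 2 were lower (median difference 1.78). Perp, a desmosomal membrane protein, differed by 6.89 ± 0.17, Dsp (desmoplakin) by 6.52 ± 0.14 and Epcam by 5.30 ± 0.21, and the 2 lower ones were the junctional adhesion molecules Jam2 (-2.89 ± 0.17) and Jam3 (-2.09 ± 0.20). Of 12 transcription factors known to activate or repress junction genes such as Cdh1, 6 were higher and 5 were lower. The Grainyhead factors Grhl2, Grhl1 and Grhl3, activators of epithelial junction genes, differed by 5.19, 4.21 and 3.10. The repressors Twist1, Zeb2, Snai1 and Zeb1 differed by -5.39, -4.62, -3.37 and -2.89, whereas Snai2, also a repressor, was higher by 1.93 ± 0.16.

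Within the keratinocytes, the follicle stem cells (BuSC and HGSC) were set against Epi and Foll. Here 5 of the 53 genes were higher in stem cells and 11 were lower, beside 13.8% of all tested genes called (8.15% higher and 5.68% lower), and the median difference of the 53 was -0.02, against 0.10 over all. The genes lower in stem cells included the connexin Gjb5, the desmosomal Dsg1a, Pkp1, Dsc1 and Pkp3, and the cadherins Cdh13, Cdh4 and Cdh1. The genes higher in stem cells were Cldn10, Gjb2, Cdh3, Cdh11 and Cdh24. Of these, Cdh11 (1.16 ± 0.19) fell under the minimum difference without the 4 libraries that resembled another population (0.99). It did so too without Foll zone 1 replicate 2 alone (1.00, rounded) and after quantile scaling (0.89). Cdh24 (1.15 ± 0.24) fell under it after quantile scaling (0.96). Cldn4 differed by -0.93 with all libraries and by -1.06, past the minimum difference, without those 4. Without them Gjb5 differed by -2.96, Dsg1a by -2.15, Pkp1 by -2.04, Gjb2 by 1.44, Cdh3 by 1.32 and Cdh1 by -1.20. Other markers moved with this contrast: 4 of 5 melanocyte markers were higher in stem cells, with sums of 5.14 to 88.6 RPKM in BuSC and 41.2 to 176 in HGSC, against 8.34 to 17.2 in Epi and 1.38 to 57.8 in Foll. Both tested interfollicular markers were lower, with sums of 3.66 to 88 RPKM in BuSC and 31.8 to 161 in HGSC, and so were 3 of 4 upper follicle markers. Their part in these results was not tested.

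Gjb5 (connexin 31.1), a connexin of the epidermis, differed by -3.22 ± 0.25 (adjusted p = 1.19e-12), with 0.0354 to 9.17 RPKM in BuSC, 0 to 4.16 in HGSC, 16.3 to 45.7 in Epi and 6.70 to 48.6 in Foll. All stem cell libraries were below all Epi libraries, and BuSC overlapped Foll. Gjb2 (connexin 26) ran the other way, with library medians of 15.0 RPKM in BuSC and 23.4 in HGSC against 2.20 in Epi and 11.7 in Foll, and a difference of 1.64 ± 0.25 (adjusted p = 1.5e-06). Its libraries overlapped between stem cells and the others, from 7.82 to 36.1 RPKM in the stem cells and from 0.0310 to 25.9 RPKM in Epi and Foll. Gja1 (connexin 43) was the highest connexin in every population, with means between 103 RPKM in Neg and 236 RPKM in DF. No 2 neighbours in that order differed, but Gja1 passed the adjusted p between DP and DF (-0.72, adjusted p = 0.00127) and between Neg and the sorted populations (-0.67, adjusted p = 0.000188), in both short of the minimum difference.

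Of the desmosomal genes, Dsg1a, Pkp1, Dsc1 and Pkp3 were lower in the stem cells. Dsg1a, a desmoglein 1 gene, had library medians of 22.3 RPKM in BuSC and 25.9 in HGSC, against 163 in Epi and 75.9 in Foll, a difference of -2.32 ± 0.17 (adjusted p = 1.70e-13). Its highest stem cell library had 33 RPKM and the lowest of Epi and Foll had 46.5 RPKM, so the groups did not overlap. Dsg1a, Dsg1b and Dsg1c are near copies of one another, and reads may have been split between them in counting. Pkp1, the plakophilin of stratified epithelia, differed by -2.14 ± 0.14 (adjusted p = 8.31e-15), with 31.3 to 49.6 RPKM in the stem cells and 88.8 to 301 RPKM in Epi and Foll. Dsg1b, the other desmoglein 1 gene at over 10 RPKM, was not called (-0.81, adjusted p = 0.000201), and its BuSC and Foll means did not differ (adjusted p = 0.812). Dsc3, Dsg3 and Dsg2 were not called either, at -0.60, -0.47 and -0.24. Of the partners, 4 were higher and 11 lower. Lower were Tjp3 (-2.23 ± 0.15), Marveld2 (-1.79 ± 0.22) and Ppl (periplakin, -1.78 ± 0.09), and higher were Cgnl1 (2.04 ± 0.17), Epcam (1.19 ± 0.24), Nectin3 (1.19 ± 0.20) and Ctnnb1 (beta-catenin, 1.14 ± 0.10). Among the transcription factors, Grhl3 (-2.35 ± 0.23), Grhl1 and Ovol1 were lower and Zeb2 was higher.

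The other genes of the set that reached 10 RPKM filled in the same families. Dsg2, the desmoglein of simple and basal epithelium, had means of 22.3 RPKM in BuSC, 36.8 in HGSC, 40.6 in Epi and 28.1 in Foll, a narrower span than that of Dsg1b, with 23.8, 18.5, 49.0 and 26.9 RPKM in the same order. Pkp3, a plakophilin of most epithelial desmosomes, had 35.2 RPKM in BuSC and 29.7 in HGSC, against 74.1 in Epi and 60 in Foll, and was lower in the stem cells by -1.02 on the log2 scale, close to the minimum difference, and was not called (-0.97 at the smallest) without any 1 of 7 libraries (HGSC zones 1, 2 and 3 replicate 1, BuSC zone 3 replicate 1, Foll zone 2 replicate 2, and Epi zones 2 and 4 replicate 2). Cdh13 was lower by -2.26 ± 0.13 (adjusted p = 1.25e-15), with 8.96 RPKM in BuSC and 4.77 in HGSC, against 37.4 in Epi and 31.0 in Foll. Cdh24, a type II cadherin, averaged 15.5 RPKM in BuSC, its highest level, and 10.2 in HGSC, against 5.2 in Epi and 6.49 in Foll. Cldn12 stayed between 2.4 RPKM in DF and 11.6 RPKM in Epi. Below 10 RPKM, Dsc2 averaged 2.67 to 4.62 RPKM and Dsc1, the desmocollin of the uppermost layers, 0.605 to 6.22 RPKM in the keratinocyte populations.

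**Figure D2:**
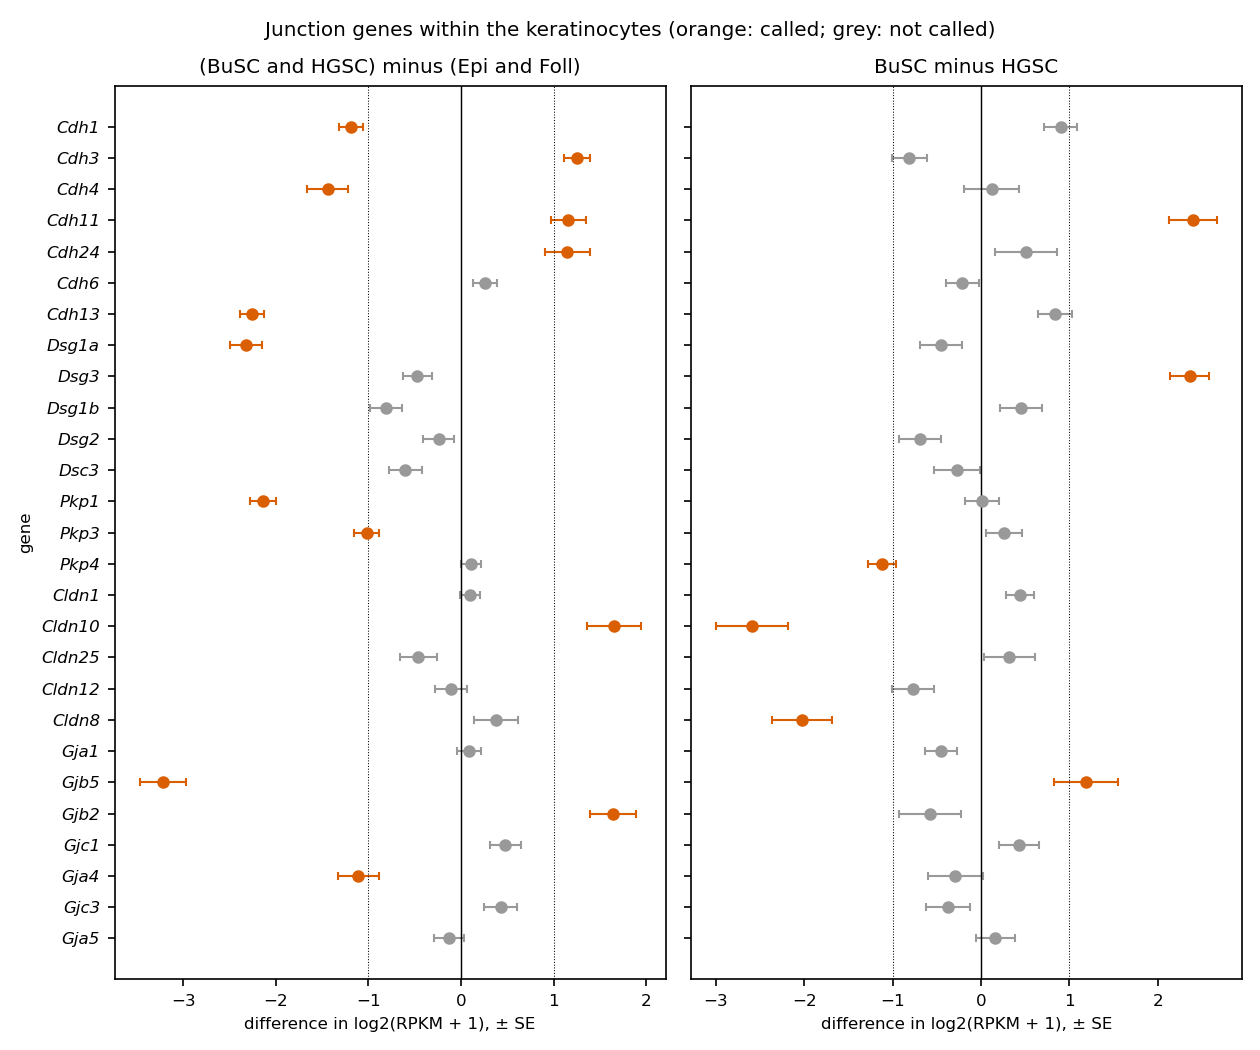
Differences in log2(RPKM + 1) with their standard errors for 27 of the 29 junction genes that reached a mean of 10 RPKM, for BuSC and HGSC minus Epi and Foll (left) and for BuSC minus HGSC (right). Orange points were called and dotted lines mark the minimum difference of 1. Cdh1 and Cdh3 stand on opposite sides of 0 in both panels, and Gjb5 is farthest left in the left panel.

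Cdh1 and Cdh3 are neighbours on chromosome 8 (GRCm38.p6, Cdh3 at chr8:106510852-106556911 and Cdh1 at chr8:106603350-106670247, with 46438 bases between them), and they were called in opposite directions. Cdh3 (P-cadherin) ranged from 45.8 to 72.4 RPKM in BuSC and from 69.5 to 140 in HGSC, against 25.7 to 41.4 in Epi and 14.4 to 83.5 in Foll, a difference of 1.25 ± 0.14 (adjusted p = 4.69e-09). All stem cell libraries were above all Epi libraries, and the Foll libraries overlapped both. The overlap with the stem cells rested on Foll zone 1 replicate 2 (83.5 RPKM), whose closest library was of HGSC. The next Foll library had 44.5 RPKM, under every stem cell library. Cdh1 differed by -1.19 ± 0.13 (adjusted p = 5.67e-09). The ratio of Cdh3 to Cdh1 within a library was between 0.347 and 0.608 in BuSC and between 1.09 and 4.26 in HGSC. It was between 0.0899 and 0.233 in Epi and between 0.0802 and 0.619 in Foll, so that HGSC was the keratinocyte population in which P-cadherin exceeded E-cadherin in each library.

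**Figure D3:**
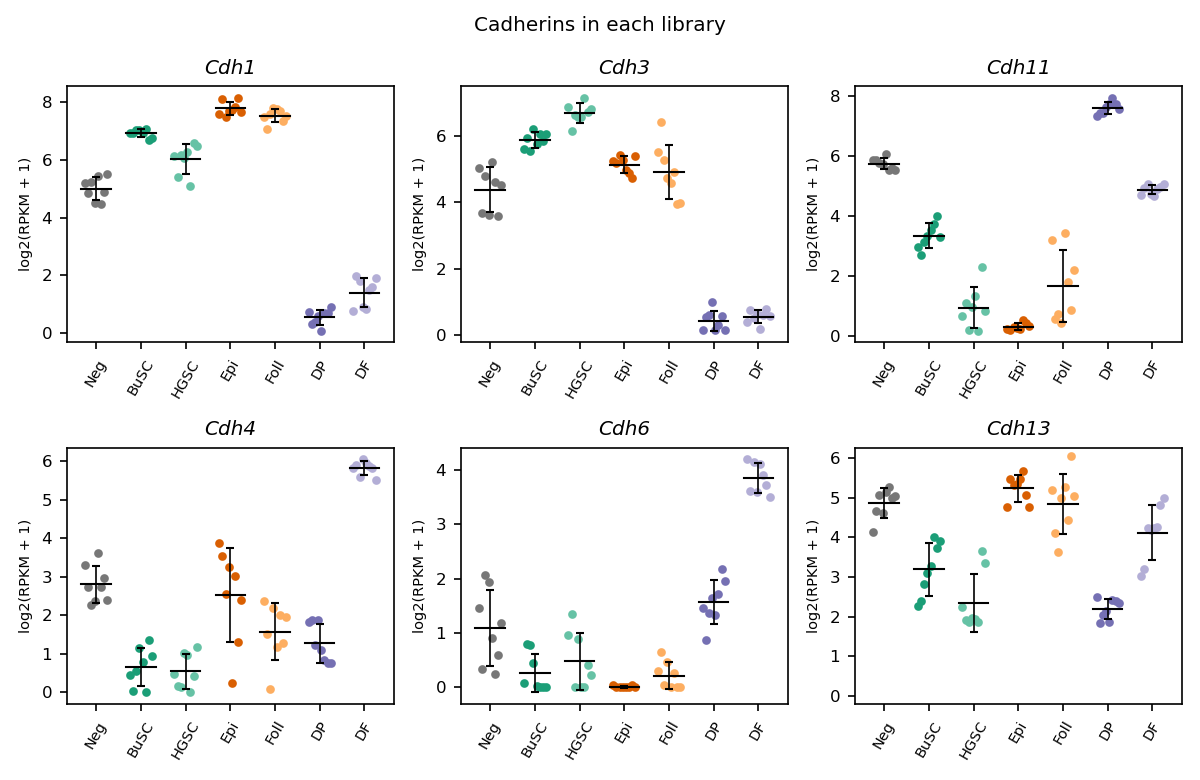
Levels of 6 cadherins, log2(RPKM + 1), in each of 8 libraries of the 7 populations. Points are libraries, horizontal lines are means and bars are SD. Cdh11 is highest in DP, with 162 to 246 RPKM, and Cdh4 in DF, with 44.9 to 65.4 RPKM.

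Bulge and hair germ, the 2 stem cell compartments, differed in fewer genes. BuSC was higher than HGSC for 3 of the 53 genes and lower for 3, beside 5.85% of all tested genes called (3.82% higher and 2.03% lower), with a median difference of 0 for the set and -0.04 over all. Dsg3, the desmoglein of basal cells, ranged from 58.7 to 118 RPKM in BuSC (median 88.6), against 8.53 to 32.4 in HGSC (median 17.0). The groups did not overlap, and the difference was 2.36 ± 0.22 (adjusted p = 6.66e-10). The plakophilin Pkp4 went the other way, with 24.0 to 30.8 RPKM in BuSC against 44.4 to 87.2 in HGSC, at -1.12 ± 0.16 (adjusted p = 1.74e-06). The claudins Cldn10 and Cldn8 were lower in BuSC, at -2.59 ± 0.41 (adjusted p = 1.30e-05) and -2.03 ± 0.34 (adjusted p = 3.67e-05). Cldn10 had 0.133 to 15.4 RPKM in BuSC against 15.2 to 51.0 in HGSC, and Cldn8 had 0.0818 to 5.56 against 5.67 to 24.1, so Cldn8 did not overlap and Cldn10 overlapped by a narrow margin. Gjb5 was higher by 1.19 ± 0.36 (adjusted p = 0.0239), a call lost with only BuSC and HGSC in the fit (adjusted p = 0.105). It was also lost without any 1 of 7 libraries (BuSC zone 1 replicate 1, zones 2, 3 and 4 replicate 2, and HGSC zone 2 replicate 1, zone 3 replicate 2 and zone 4 replicate 1), with differences of 0.86 to 1.14 and adjusted p of 0.0543 to 0.112. Cdh1 (0.90 ± 0.19) and Cdh3 (-0.81 ± 0.20) passed the adjusted p, 0.000878 and 0.00472, but not the minimum difference; Cdh1 did reach it after quantile scaling (1.03) and median-of-ratios scaling (1.00).

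Cdh11 was higher in BuSC by 2.4 ± 0.27 (adjusted p = 2.80e-08), with 5.51 to 15.0 RPKM against 0.121 to 3.89 in HGSC. The 5 fibroblast markers (Col1a1, Col1a2, Lum, Dcn and Pdgfra) were all higher in BuSC as well, with sums of 872 to 6630 RPKM against 29.7 to 190 in HGSC and none of them at 0 in either, and so were the repressors Zeb2 (2.61 ± 0.24), Twist1 (2.03 ± 0.26), Twist2 and Zeb1. The part of the fibroblast markers in the Cdh11 result was not tested. All 5 melanocyte markers were lower in BuSC, with sums of 5.14 to 88.6 RPKM against 41.2 to 176 in HGSC, and their part in the Cldn10, Cldn8 and Pkp4 results was not tested. The same holds for the call of Cdh11 in stem cells above, where 4 of 5 fibroblast markers were higher. Of the partners, only Jam2 was higher in BuSC, by 1.19 ± 0.28, and 5 were lower, among them Nectin3 (-1.67 ± 0.28), Tjp1 (-1.14 ± 0.12) and Nectin4 (-1.08 ± 0.26). Of the transcription factors, Grhl3 and Ovol2 were lower in BuSC.

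Between epidermis and upper follicle cells, Epi was higher than Foll for 1 of the 53 genes and lower for 4, beside 7.79% of all tested genes called (1.92% higher and 5.86% lower), with medians of 0 for the set and -0.09 over all. Dsg3 was higher in Epi, from 52.5 to 122 RPKM against 19.7 to 50.5 in Foll, without overlap, by 1.01 ± 0.22 (adjusted p = 0.00163), and it fell under the minimum difference without any 1 of 7 libraries (Foll zones 1 and 3 replicate 1, Foll zone 4 replicate 2, Epi zones 1, 2 and 3 replicate 2, and Epi zone 4 replicate 1; 0.92 to 1.00, rounded). With a pseudocount of 0.1 its adjusted p was 0.0689. Dsg1a (0.99 ± 0.24), Dsg1b (0.94 ± 0.24) and Pkp1 (0.90) passed the adjusted p (0.00354, 0.00592 and 0.00116) but not the minimum difference. Gjb2 was lower in Epi by -1.55 ± 0.35, Cdh11 by -1.34 ± 0.27, Cldn8 by -1.31 ± 0.34 and Gja4 by -1.23 ± 0.31. With only Epi and Foll in the fit these 4 were no longer called (adjusted p between 0.0546 and 0.156) and Dsg3 was. Without the 4 libraries that resembled another population, 9 genes were called: the same 5, and Dsg1b (1.36 ± 0.25), Dsg1a (1.17 ± 0.26), Cldn12 (1.09 ± 0.27) and Pkp1 (1.01 ± 0.23), all higher in Epi. Leaving out 1 library gave 9 calls without Foll zone 3 replicate 2 or Epi zone 4 replicate 2, and 8 without Foll zone 2 replicate 2, Foll zone 4 replicate 2, Epi zone 2 replicate 1 or Epi zone 3 replicate 1. After quantile scaling Cdh11 (-0.96), Cldn8 (-0.99) and Gja4 (-0.92) were not called. Within zones the set gave 4, 0, 3 and 1 calls in zones 1 to 4. The set's split of 1 higher and 4 lower became 5 and 1 after quantile scaling and 4 and 4 after median-of-ratios scaling, while the share of all calls that were higher moved through 24.7%, 42.5% and 38.0%.

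Markers of other cell types were also lower in Epi. The summed fibroblast markers were 17.9 to 116 RPKM in Epi against 75.8 to 1170 in Foll, with 4 of 5 called lower, and the summed endothelial markers (Pecam1, Kdr, Tie1, Tek and Emcn) were 0.0727 to 0.659 RPKM in Epi against 5.87 to 17.1 in Foll, with 1 of 5 called lower and none at 0 in every library. Called lower as well were 3 of 4 bulge, 2 of 3 hair germ, 3 of 4 upper follicle and 3 of 5 immune markers. So were 2 of 5 smooth muscle and pericyte, 1 of 5 dermal papilla and 1 of 4 Schwann cell markers. Of 5 melanocyte markers, 1 was lower and 1 was higher, the only marker called higher in Epi. The part of any of these in the Dsg3, Gjb2, Cdh11, Cldn8 and Gja4 results was not tested. Among partners, 1 was higher in Epi and 4 were lower, namely Ctnnd2, Cgnl1, Nectin3 and Epcam (-1.56 to -1.19). Zeb2 was the 1 transcription factor called, at -2.33 ± 0.24.

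Between the mesenchymal populations, DP was higher in Cdh11 and lower in Cdh4, Cdh6 and Cdh13, and Cdh11 was the highest type II cadherin in both. DP was higher than DF for 7 of the 53 genes and lower for 6, beside 30.3% of all tested genes called (24.2% higher and 6.13% lower). The median difference of the set was -0.01, and that of all tested genes was 0.47, which fell to 0.08 with quantile scaling and to 0 with median-of-ratios scaling. Cdh11 ranged from 162 to 246 RPKM in DP against 24.1 to 32.8 in DF, without overlap, at 2.72 ± 0.27 (adjusted p = 2.21e-10). Cdh4 (R-cadherin) was the reverse, with 0.682 to 2.66 RPKM in DP against 44.9 to 65.4 in DF, at -4.54 ± 0.31 (adjusted p = 3.75e-14). Cdh6 ranged from 0.822 to 3.52 RPKM in DP against 10.3 to 17.3 in DF, at -2.28 ± 0.19 (adjusted p = 2.09e-12), and the GPI-anchored Cdh13 (T-cadherin) was lower by -1.92 ± 0.19. These 4 cadherins were called in the same direction under both scalings. Smooth muscle and pericyte markers (Acta2, Myh11, Cnn1, Des and Rgs5) were also lower in DP, 4 of 5 of them called, with sums of 6.19 to 21.4 RPKM against 675 to 1150 in DF and 404 to 863 in Neg, and none was at 0 in every DF library. Fibroblast markers were lower as well, 4 of 5 called, with sums of 530 to 983 RPKM in DP against 33200 to 42800 in DF. The part of either in the Cdh4, Cdh6, Cdh13 and Cldn10 results was not tested.

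Among channel and seal genes, Gjc1 was higher in DP, from 16.5 to 21.2 RPKM against 1.5 to 5.48 in DF, at 2.03 ± 0.23 (adjusted p = 5.97e-09). Cldn10 was lower in DP, from 0.392 to 5.69 RPKM against 29.6 to 48.8 in DF, at -3.51 ± 0.41 (adjusted p = 5.86e-09), and Gjc3 was lower by -1.94 ± 0.25. In DF the mean of Cldn10 (38.0 RPKM) did not differ from that in HGSC (33.7 RPKM; adjusted p = 0.606), the next in order. Schwann cell markers were also lower in DP (3 of 4 called), with sums of 2.44 to 12.8 RPKM against 16.1 to 39.6 in DF and none at 0 in every library. Their part in the Gjc3 result was not tested. Cdh24, Cdh22 and Cldn9 were higher in DP at low levels, with DP means of 2.93, 1.68 and 1.87 RPKM, and Cldn9 (1.13 ± 0.13) was under the minimum difference with median-of-ratios scaling (0.98) and without DP zone 1 replicate 1 (1.00, rounded). Cdh22 and Cldn9 passed the filter on low values only through DP libraries. Pkp2 was lower in DP by -1.12 ± 0.19, and by -0.88, not called, without DF zone 3 replicate 1. Cdh2 (1.11 ± 0.19) and Cldn25 (1.07 ± 0.29) were called higher as deposited, and neither was called after quantile scaling (0.62 and 0.40) or median-of-ratios scaling (0.49 and 0.22). Cldn25 is listed by RefSeq as another name of 2 genes. Its row fits a length of 2194 bases, against 2563 exonic bases of Cldnd1 and 693 of Cldn25-ps in GENCODE, and it was given to neither. With scaling the set's split became 5 higher and 8 lower (quantile) or 4 higher and 9 lower (median of ratios), and the share of all calls higher in DP went with it, at 79.8% as deposited, 44.0% and 33.6%.

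Partners followed no single direction between DP and DF, with 4 of 34 higher and 2 lower. Ctnnb1 was higher in DP by 1.99 ± 0.14, with means of 379 RPKM in DP and 93.8 in DF, and Jam3, Nectin2 and Ppl by 1.44, 1.40 and 1.12. Cgnl1 and Ctnna3 were lower, at -1.94 and -1.35. Of the transcription factors, Snai1 (2.23 ± 0.31), Twist1 (1.59 ± 0.26), Tcf3 and Zeb2 were higher in DP and Twist2 was lower (-1.43 ± 0.27).

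The mixed remainder of the sort was set against the mean of the 6 sorted populations. Neg was higher for 10 of the 53 genes and lower for 4, beside 14.7% of all tested genes called (12.9% higher and 1.81% lower), with medians of -0.11 for the set and 0.02 over all. Gja5 (connexin 40), an arterial connexin, ranged from 12 to 18.5 RPKM in Neg and had a mean of at most 1.07 RPKM in any sorted population, at 3.69 ± 0.17 (adjusted p = 4.87e-19). Gja4 (connexin 37), also of vessels, ranged from 9.33 to 25 RPKM in Neg, with sorted means of at most 4.24 RPKM, at 3.32 ± 0.24. Gjc3, a connexin of myelinating glia, and Cldn19, a claudin of Schwann cells, were higher by 3.19 ± 0.19 and 2.82 ± 0.11. Gjc1 (2.75 ± 0.18) and Cdh11 (2.63 ± 0.21) were higher than the mean of the 6. Cdh11 was highest in DP, and for Gjc1 the means in Neg (18.8 RPKM) and DP (19.1 RPKM) did not differ (adjusted p = 0.88).

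Lower in Neg than the mean of the 6 were Dsg3 (-1.76 ± 0.17), Dsg1b (-1.44 ± 0.18), Pkp3 (-1.16 ± 0.15) and Dsg1a (-1.11 ± 0.18). Their means in Neg (3.45, 2.55, 5.63 and 6.66 RPKM) were still above those in DP and DF (at most 0.482, 0.164, 0.328 and 0.89 RPKM). Of these, Dsg1b (-0.57), Pkp3 (-0.32) and Dsg1a (-0.62) were not called with voom, Pkp3 (-0.67) and Dsg1a (-0.75) not with a pseudocount of 0.1, and Pkp3 (-0.99) not without Neg zone 2 replicate 2. Cdh1 was at 21.2 to 44.5 RPKM in Neg, far over either mesenchymal population, and keratinocyte markers summed to between 315 and 948 RPKM there. All 5 endothelial markers were higher in Neg, with sums of 84.9 to 172 RPKM against at most 21.5 in a sorted library. So were all 4 Schwann cell markers, with 133 to 212 RPKM against at most 39.6. All 5 fibroblast, 5 smooth muscle and pericyte, 5 melanocyte and 5 immune markers were higher too. Their sums in Neg were 4900 to 10600, 404 to 863, 299 to 578 and 817 to 1280 RPKM in that order. For fibroblast and smooth muscle and pericyte markers, the DF sums were higher still or overlapped (33200 to 42800 and 675 to 1150 RPKM). The part of any of these in the Gja4, Gja5, Gjc3, Cldn19, Gjc1 and Cdh11 results was not tested. After quantile scaling the set's split was 9 higher and 11 lower, and 65.1% of all calls were higher in place of 87.7%. Of the partners 6 were higher, led by Jam2 (2.86 ± 0.22), Ildr2, Ctnna3 and Ctnnd2, and 3 lower, namely Ppl (-1.48 ± 0.10), Evpl and Marveld3. Of the transcription factors 5 were higher (Zeb2, Zeb1, Twist1, Twist2 and Snai1) and 2 lower (Grhl1 and Grhl2).

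**Figure D4:**
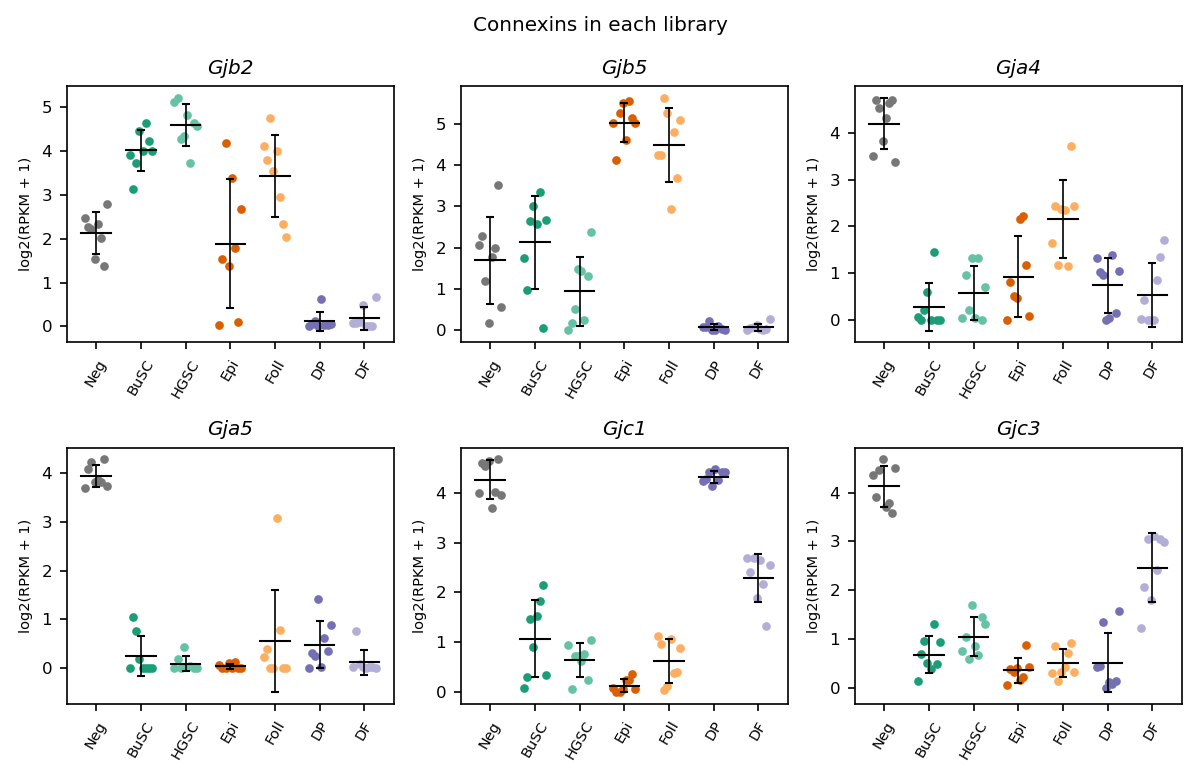
Levels of 6 connexins, log2(RPKM + 1), in each of 8 libraries of the 7 populations, with means (horizontal lines) and SD (bars). Gjb5 is highest in Epi and Foll and Gjb2 in HGSC and BuSC, Gja4, Gja5 and Gjc3 in Neg, and Gjc1 in DP and Neg, where its means were 19.1 and 18.8 RPKM.

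A gene was taken as marking 1 population where it was called higher there than in each of the other 6. This held for 10 of the 53 genes, beside 11.1% of all tested genes. In DP these were Cdh11, Cdh22 and Cldn9 (3.17% of all tested genes marked DP), in DF Cdh4 and Cdh6 (1.35%), and in Neg Cldn11, Cldn19, Gja4, Gja5 and Gjc3 (4.48%). Cdh22 and Cldn9 reached 1 RPKM only in DP libraries (5 and 6 of them). They passed the filter on low values through DP alone, so that they mark DP follows in part from the filter. None of the set marked a single keratinocyte population, where 0.287% of tested genes marked BuSC, 0.436% HGSC, 0.938% Epi and 0.454% Foll.

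Zones within a population were compared with an F test over the 4 zones. As fitted in limma, with the spread shared by all populations, it called 5 genes of the set in DP (0.43% of all tested genes), 1 in DF (0.197%), 1 in BuSC (0.359%), 1 in Epi (1.79%), 1 in Neg (1.01%), 2 in Foll (1.03%) and 0 in HGSC (0.137%), where 5 had an unadjusted p under 0.05 and voom called 0. With only the libraries of the population compared in the fit, it called 0 in each of the 7, where adjusted p of the genes named here were between 0.488 and 0.926. On simulated data, zone trends were seeded in some genes of BuSC and nowhere else. There the shared fit falsely called genes without a zone difference, and the fit to a single population made fewer such calls. No zone difference is therefore taken as shown, and the values are given as a description.

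In DP, the low-level Cldn9 had 14 to 123 reads in each library of zones 1 to 3 (1.05 to 3.38 RPKM) and 0 reads in both zone 4 libraries. Cldn19 had at most 0.173 RPKM in zone 1, 1.84 and 4.39 RPKM in zone 2, and at most 0.287 RPKM in zones 3 and 4, Gja6 had 7.32 and 3.97 RPKM in zone 1 and at most 0.725 elsewhere, and Cdh22 had 1.63 to 3.51 RPKM in zones 1 and 2, 0.466 and 1.82 in zone 3, and 0.422 and 0.482 in zone 4. Gja6, Gja5 and Cdh18 overlap other annotated genes, so their reads may not be separated where counting ignored strand, which the sources used here do not give. With voom on reads recovered from the RPKM, Cldn9 (adjusted p = 0.0164), Cldn19 (adjusted p = 0.00728) and, in BuSC, Pkp2 (adjusted p = 0.00149) were called again. Pkp2 had 0 reads in both zone 1 libraries of BuSC and 1.37 to 3.19 RPKM in zones 3 and 4. Cdh3 in Foll had 44.5 and 83.5 RPKM in zone 1, 37.2 and 25.5 in zone 2, 22.8 and 28.7 in zone 3, and 14.4 and 14.6 in zone 4, and the library at 83.5 RPKM is the one closest to HGSC. Without the 4 libraries that resembled another population, its adjusted p was 0.237. Other calls rested on single libraries: Gja5 in Foll on 7.40 RPKM in zone 3 replicate 1, and Cldn24 in Epi on 14.5 RPKM in zone 3 replicate 1. Cdh17 in Neg was between 0.129 and 3.13 RPKM. The trend over zones was called as different between populations for 1 gene of the set, Cdh18, beside 0.699% of all tested genes.

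**Figure D5:**
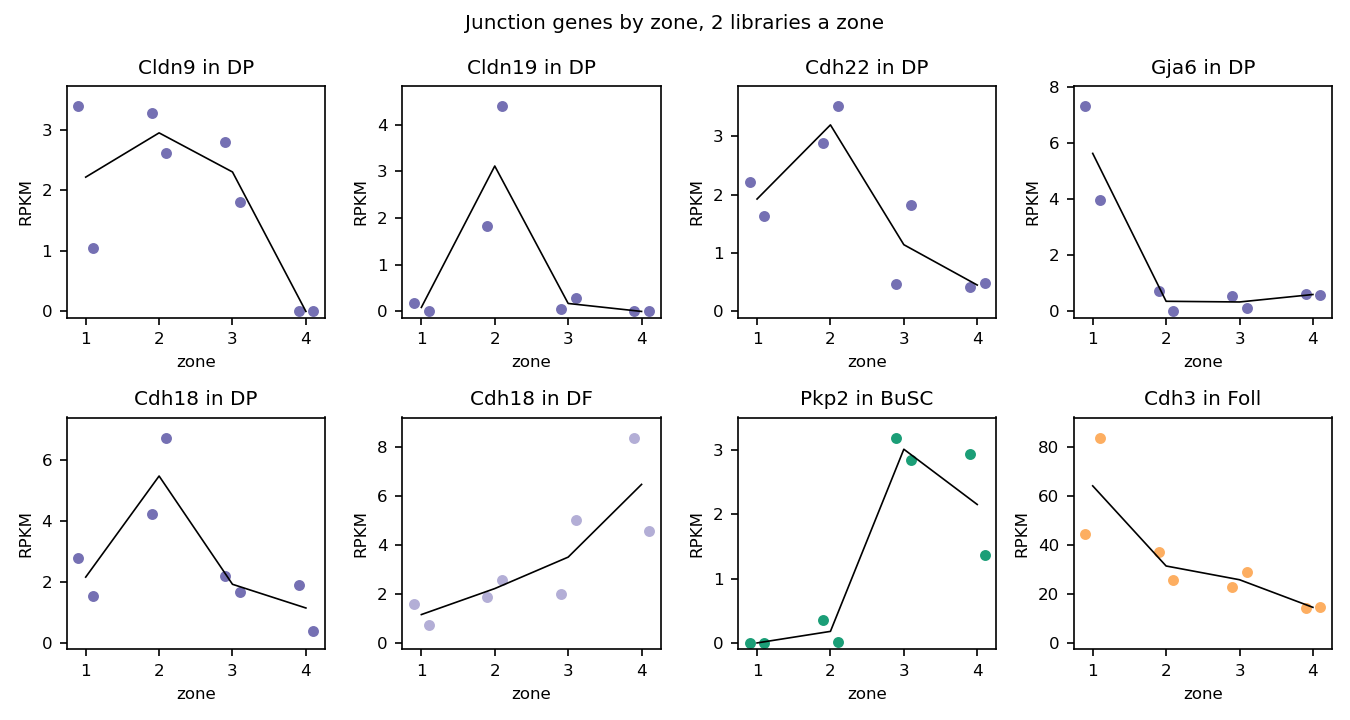
RPKM by zone for 8 pairs of a gene and a population called in the shared zone test, with 2 libraries a zone (points) and the mean (line). Cldn9 in DP is at 0 in both zone 4 libraries and Pkp2 in BuSC at 0 in both zone 1 libraries; no pair was called with only its population in the fit.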

How the data were processed

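The authors sequenced amplified cDNA of 56 sorted-cell libraries and deposited 1 table of RPKM values per gene and library. The submitters' processing notes name STAR 2.4.0, featureCounts, limma, edgeR and DESeq2 and the mm10 build, and per the labels' protocols the RNA was amplified from 6 ng with a NuGEN kit. Groups were taken from the titles. Genes with at least 1 RPKM in at least 2 libraries were tested (16731 of 24062). limma 3.58.1 (R 4.3.3) was fitted on log2(RPKM + 1) with 28 group means, 28 residual degrees of freedom and an intensity trend, and p-values were adjusted by Benjamini-Hochberg over all tested genes. Whole reads could be recovered from the deposited RPKM for 99.98% of genes above 0 (within 0.02 reads of a whole number), giving 3.24 to 87.8 M reads a library. They were used in a voom alternative, and low genes rest on few reads.

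Of the 76 genes, 75 matched a RefSeq symbol. Some genes of the set and of the partner list are counted but not reported here by name. Values are given mainly for genes with a mean of at least 10 RPKM in a population, and otherwise for up to 6 called genes a direction or zone test and up to 4 partners or transcription factors a direction. Members and lists were chosen with earlier results of these data known. On simulated data, DP minus DF, BuSC minus HGSC and Epi minus Foll recovered most of the large changes seeded in genes with many reads. The other population contrasts, small changes and genes with few reads were not tried there. The shared zone tests made false calls there, as the results state. Alternatives were the pseudocount, the filter, the scaling, the test, the replicate block, the libraries in the fit, and leaving out libraries.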

Additional observations from a re-analysis of the deposited data

Results flagged for a closer look

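Over 96 groups of 8 libraries (a gene in a population with a mean of at least 10 RPKM), 6 held a library far from the rest, where chance gives about 1 in 20. These were Gja1 in Foll zone 1 replicate 2 (266 RPKM, the next 175), Cdh3 in the same library (83.5, the next 44.5), Pkp3 in HGSC zone 3 replicate 2 (45.8, the next 33), Pkp4 in Epi zone 1 replicate 2 (82.9, the next 53.7), Cldn25 in BuSC zone 1 replicate 1 (31.3, the next 23.0) and Cldn8 in HGSC zone 4 replicate 1 (24.1, the next 14.3). The library of the first pair was the Foll library closest to HGSC.

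The zone trend of Cdh18 was called as different between populations in the moderated F test of limma (adjusted p = 0.0306), with slopes of -0.30 in DP and 0.57 in DF (log2 a zone). Cdh18 ranged from 0.378 to 6.71 RPKM in DP and from 0.717 to 8.37 RPKM in DF. It reached 1 RPKM only in libraries of these populations and passed the filter on low values through them. The difference of the slopes, DP minus DF, was -0.87 (adjusted p = 0.00296), and in an alternative chosen after seeing the data, with only DP and DF in the fit, it was also -0.87 with an adjusted p of 0.301. This test shares the fault of the zone tests.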

How the results depend on the processing

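Over 3872 recomputations of the 93 results for single genes, 3732 kept their call and direction and 137 lost the call. In 3, all for Gja5 over the zones of Foll, the slope changed sign, where it was 0.10 (log2 a zone) as fitted: it was -0.06 with a pseudocount of 0.1 (still called, adjusted p = 0.0393 in limma), -0.28 with voom and -0.02 without Foll zone 3 replicate 1, the lowest on leaving out 1 library, where the highest was 0.21. Leaving out each library gave 26 to 28 calls for keratinocytes against mesenchyme, 11 to 14 for DP against DF, 5 to 7 for BuSC against HGSC, 4 to 9 for Epi against Foll, 15 to 17 for stem cells against other keratinocytes, 13 to 17 for Neg against the sorted populations and 9 to 13 for genes marking 1 population. It gave 3 to 5 zone calls in DP, 0 to 1 in DF, 1 to 3 in BuSC, 0 to 0 in HGSC, 0 to 4 in Foll, 0 to 6 in Epi, 0 to 2 in Neg and 0 to 3 for trend differences. The extremes in Epi were 0 without zone 3 replicate 1 and 6 without zone 3 replicate 2, and those in Foll 0 without zone 4 replicate 1 and 4 without zone 2 replicate 2.

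Counts that moved by over 1.5 times were as follows, and the cause was not tested. Epi against Foll gave 8 calls with median-of-ratios scaling, 9 with voom, 11 with no minimum difference, 9 without the 4 libraries that resembled another population and 1 with only Epi and Foll in the fit, in place of 5. With no minimum difference BuSC against HGSC gave 12, Neg against the sorted populations 33 and marking genes 19; with voom Neg gave 23 and marking genes 17. For zones, a pseudocount of 0.1 gave 3 calls in DP, 0 in DF, 1 in Foll, 0 in Neg and 0 trend differences. No filter gave 2 in DF, 2 in BuSC, 0 in Epi, 2 in Neg and 4 trend differences. At least 1 RPKM in 8 libraries gave 1 in DP and 0 in DF, Epi, Neg and trend differences. Quantile scaling gave 3 in DP and 0 in Foll, Epi and Neg. Median-of-ratios scaling gave 3 in DP, 2 in DF and 0 in Foll. Voom gave 2 in DP and 0 in DF, Foll, Neg and trend differences. Without the 4 libraries there were 3 in DP, 0 in DF, 2 in BuSC, 1 in HGSC, 6 in Foll, 5 in Epi, 0 in Neg and 2 trend differences. With 1 population in the fit there were 0 in DP, DF, BuSC, Foll, Epi and Neg.

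Of 378 pairs of groups, none had same-numbered libraries that deviated together with an r over 0.1 (all r between -0.06 and 0.09). The mean r of a group with the others was above 0 in all 28 groups. These values show no strong pairing by number, and they cannot tell a weak pairing from none. With the replicate block the counts were 27 for keratinocytes against mesenchyme, 13 for DP against DF, 6 for BuSC against HGSC, 5 for Epi against Foll, 16 for stem cells against other keratinocytes, 14 for Neg, 10 marking genes, and 4 in DP, 1 in DF, 1 in BuSC, 0 in HGSC, 2 in Foll, 1 in Epi, 1 in Neg for zones with 1 trend difference. Depth limits the genes under about 1 RPKM, and zone, batch and animal cannot be told apart.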
